A study of Mus musculus with 8 samples.

Results

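The 42 genes described here encode proteins that carry a cell through mitosis: the regulators of mitotic entry, the kinases, the kinetochore and spindle checkpoint, the kinesin motors, the chromosomal passenger complex and the machinery of cytokinesis. They were listed by function, with earlier results of these data known. All 42 were matched by symbol among the 35204 genes of the deposited table of mouse liver. Poly-A RNA was sequenced from pieces of liver in 8 libraries, of which 5 are called TAZ-CCl4 and 3 control. The 5 TAZ-CCl4 libraries came from C57BL/6J mice, labelled wild type, that were given TAZ S89A by HTVI, under the EF1a promoter, which is active in most cell types, and carbon tetrachloride (CCl4) injected 30 times, at 3 times a week over 10 weeks. The 3 control libraries came from C57BL/6J mice, also labelled wild type, with no treatment, and each control's labels also name an earlier deposited sample. Ages are not in the labels. The gene Wwtr1 encodes TAZ, a coactivator of transcription that Hippo signalling restrains, and the S89A form lacks one of the sites through which phosphorylation inhibits it. Hydrodynamic tail vein injection, as HTVI is read in this field, brings plasmid DNA mainly into hepatocytes. CCl4 is a toxin of hepatocytes used to cause repeated liver injury. The controls received neither the construct nor CCl4, and the labels give each group its own library project, so the effects of the construct, of CCl4 and of the project cannot be told apart.

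Most hepatocytes of an adult liver are quiescent, and mitotic genes are then held at low levels by the DREAM complex, a repressor that binds a short element near the start of many of these genes. In a dividing cell the element is taken over by activators, among them B-MYB and FOXM1, and the mitotic genes are transcribed together late in the cycle. Their proteins then condense and attach the chromosomes, hold anaphase until every kinetochore is attached, and split the cell, after which the anaphase promoting complex marks many of them for degradation.

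Values are normalised counts per gene, that is, the authors' gene counts divided by a scaling factor per library. Fold changes are differences of log2(value + 1) between TAZ-CCl4 and control libraries, which understates the change of low genes, and were tested with limma over the 14171 genes with a mean of at least 10. Normalised totals were 12.4 to 14.2 M in TAZ-CCl4 and 29.8 to 35.1 M in control libraries, and the depth estimated from the most frequent low value of each library was about 12.4 to 33.8 M and 18.6 to 24.9 M reads. Wwtr1, the gene of the introduced coactivator, stood at 9021, 4339, 5114, 4892 and 5299 in TAZ-CCl4 replicates 1 to 5 and 463, 358 and 279.9 in control replicates 1 to 3. The groups did not overlap for Wwtr1. Of the 8 hepatocyte markers in the table, 7 were called lower in TAZ-CCl4 libraries and 0 higher, 2 lower and 0 higher at equal totals, and none was at 0 in either group. Over all tested genes 62.3% were called, 32.4% higher and 29.8% lower in TAZ-CCl4 libraries. As deposited, the median over all tested genes was a log2 fold change of 0.03, with 4592 genes higher and 4230.0 lower. It was 1.26 once every library was set to the same total, with 10808 higher and 903 lower, and 0.22 at equal upper quartiles, with 5467 higher and 3315 lower.

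All 42 members rose in TAZ-CCl4 libraries (limma, adjusted p under 0.05), where 32.4% of all tested genes did, and 0 fell. Their log2 fold changes ran from 1.15 to 4.88 with a median of 3.57, and 40 of the 42 exceeded 2, as did 14.9% of all tested genes. For 38 members every TAZ-CCl4 library stood above every control, against 30.7% of all tested genes. The 4 members whose groups overlapped were Cenpa, Cenpe, Nuf2 and Kif2c. In pieces of whole tissue, more dividing cells and more of these transcripts per cell cannot be told apart. With all libraries at the same total the median of the members was 4.76 and all 42 were again called higher. At that scaling 10808 of the 14171 tested genes were called higher, and the median over all tested genes was 1.26.

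The controls held these transcripts at levels close to the counting limit. The median member stood at an estimated 122 to 503 reads per TAZ-CCl4 library and at 8.18 to 17.8 reads per control library, and 10 to 23 of the 42 members had fewer than 10 estimated reads in a control. All 42 members passed the filter on low values, but 8 of them had a control mean under 10 and passed only through the TAZ-CCl4 libraries: Foxm1, Melk, Pbk, Bub1, Ndc80, Kif15, Kif18b and Kif4. When genes were chosen by the control mean alone, 34 members were tested and 33 were called higher, against 27.3% of the genes tested that way. Cenpa was the exception. Control replicate 1 stood apart from the other two controls, with the highest value of the 3 for 34 members. Without it 41 members were called higher, with a median log2 fold change of 4.07, and Cenpa was again the exception (limma, adjusted p = 0.0932).

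**Figure D1:**
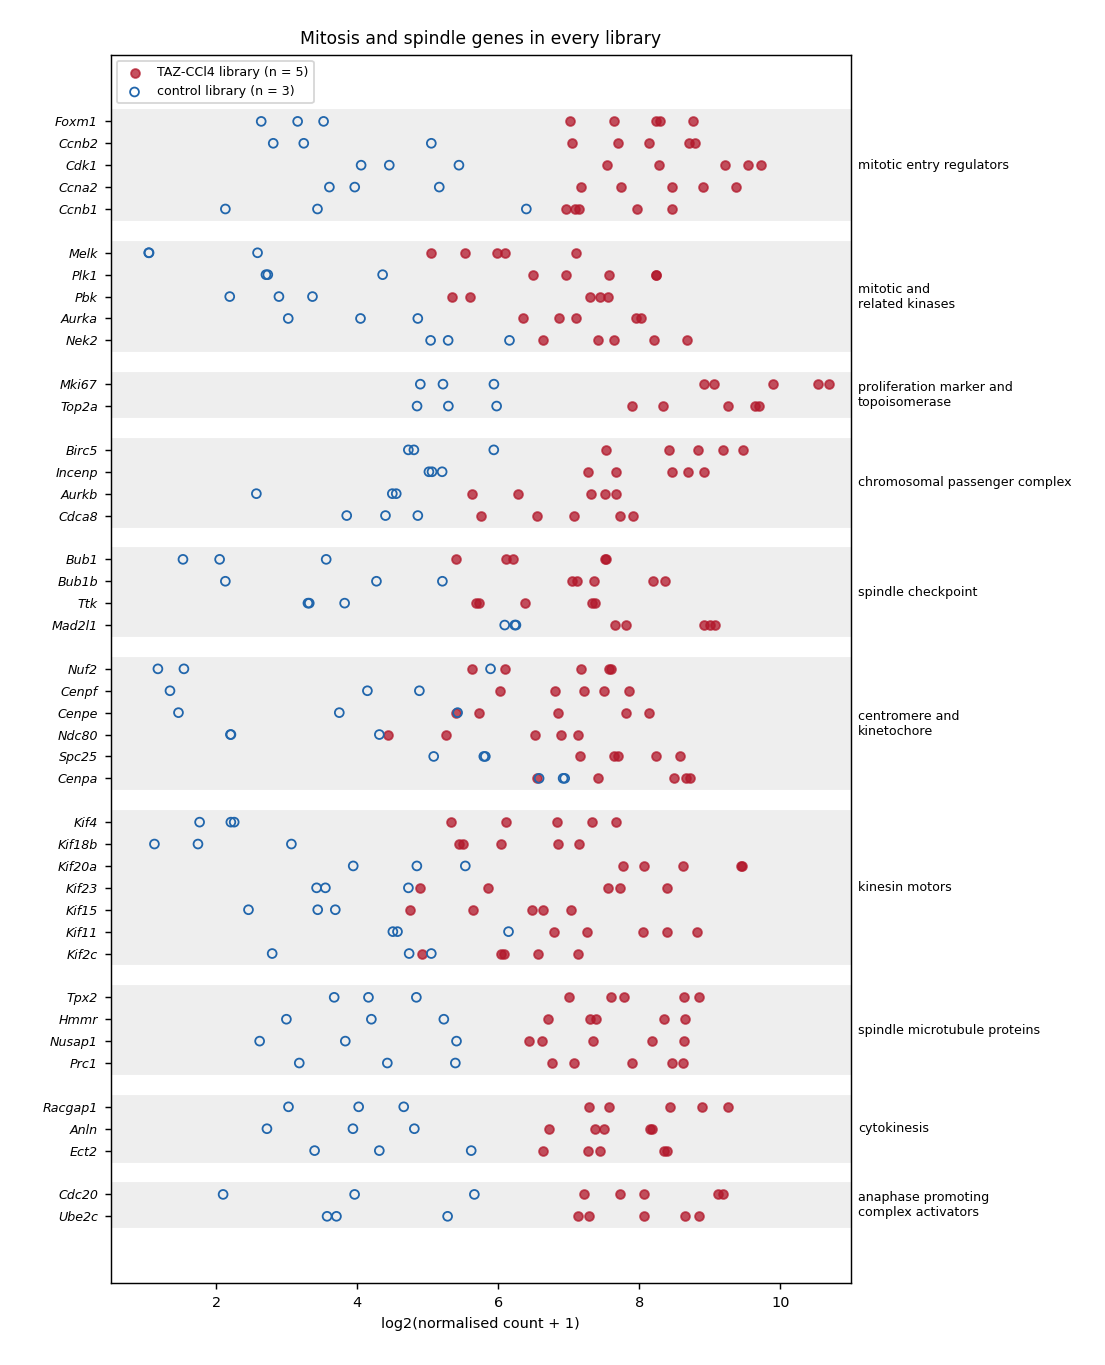
Each row is a gene and each point a library, with log2(normalised count + 1) on the horizontal axis, filled red for the 5 TAZ-CCl4 and open blue for the 3 control libraries, grouped by role. The groups are apart in 38 of the 42 rows and touch or overlap in those of Cenpa, Cenpe, Nuf2 and Kif2c.

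The members also share letters near their starts that the list did not use. A RefSeq window (GRCm38.p6, the assembly behind mm10) from 250 bases before to 50 bases after the start was found for 35 of the 42 genes, in 37 windows. No window was matched for Pbk, Ccna2, Aurkb, Kif20a, Incenp, Tpx2 and Foxm1. The hexamer TTTGAA, the core of the cell cycle genes homology region through which the DREAM complex and B-MYB act, lay on either strand in 28 of the 37 windows (75.7%), against 17.9% of the 32851 windows of the whole table and 12.6% of the 13887 windows of tested genes. Within 50 bases before or after the start it lay in 26 windows (70.3%), against 4.94% of all windows. CCAAT, the letters bound by the factor NF-Y, lay in 28 windows (75.7%), against 37.4% of all windows and 37.7% of those of tested genes, and 20 windows held more than 1 copy, against 11.7% of all. TTTGAA and CCAAT occurred together in 24 windows (64.9%), against 6.95% of all and 5.08% of those of tested genes. The variant hexamers TTTAAA and TTCGAA lay in 9 and 3 windows (24.3% and 8.11%), against 13.2% and 1.56% of all windows. The E2F letters TTCCCGC and TTGGCGC lay in 0 and 6 windows, against 4.60% and 2.45% of all, and GGAATG, the letters bound by the TEAD factors that carry TAZ to DNA, in 5 windows (13.5%), against 14.7% of all windows. All motifs were searched on both strands, matches of different motifs may overlap, and windows of the same gene share sequence. A match is a description of letters and not of a bound site.

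To show how these letters are spaced, the stretch before the start is printed for 5 members that hold both TTTGAA and CCAAT there. They are Mki67 (chr7:135716380-135716629, minus strand), Top2a (chr11:99024190-99024439, minus strand), Cdk1 (chr10:69352913-69353162, minus strand), Kif11 (chr19:37376132-37376381, plus strand) and Prc1 (chr7:80294226-80294475, plus strand). Each runs over 250 bases and ends at the base before the start, and capitals mark TTTGAA or CCAAT on either strand (TTCAAA and ATTGG on the other).
Mki67: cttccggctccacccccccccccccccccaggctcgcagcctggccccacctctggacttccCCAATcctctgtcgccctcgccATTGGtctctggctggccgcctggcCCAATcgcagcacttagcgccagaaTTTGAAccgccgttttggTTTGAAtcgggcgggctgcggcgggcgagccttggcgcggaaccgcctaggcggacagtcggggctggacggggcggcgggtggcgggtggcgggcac
Top2a: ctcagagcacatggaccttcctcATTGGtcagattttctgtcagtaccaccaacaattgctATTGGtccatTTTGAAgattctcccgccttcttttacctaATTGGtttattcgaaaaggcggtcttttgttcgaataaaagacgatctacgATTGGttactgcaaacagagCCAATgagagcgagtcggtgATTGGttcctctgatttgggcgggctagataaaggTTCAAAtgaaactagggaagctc
Cdk1: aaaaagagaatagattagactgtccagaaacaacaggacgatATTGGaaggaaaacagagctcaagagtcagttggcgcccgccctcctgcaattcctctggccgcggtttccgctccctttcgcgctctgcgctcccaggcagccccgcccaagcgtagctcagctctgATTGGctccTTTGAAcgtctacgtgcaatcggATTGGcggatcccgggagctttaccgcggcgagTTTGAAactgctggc
Kif11: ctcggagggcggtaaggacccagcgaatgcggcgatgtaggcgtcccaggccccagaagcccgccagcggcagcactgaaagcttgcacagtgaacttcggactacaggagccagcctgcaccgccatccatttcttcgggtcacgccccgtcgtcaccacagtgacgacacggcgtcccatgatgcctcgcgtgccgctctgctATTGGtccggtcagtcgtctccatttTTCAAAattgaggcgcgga
Prc1: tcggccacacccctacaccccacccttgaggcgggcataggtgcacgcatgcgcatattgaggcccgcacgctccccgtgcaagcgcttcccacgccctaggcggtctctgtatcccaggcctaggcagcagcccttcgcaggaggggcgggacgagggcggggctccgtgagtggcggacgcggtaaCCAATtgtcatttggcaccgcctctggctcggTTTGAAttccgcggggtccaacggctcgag
Top2a held 6 copies of CCAAT, Mki67 and Cdk1 3 each, and Kif11 and Prc1 1 each. TTTGAA began 15 bases before the start of Cdk1, 19 before that of Kif11, 23 before that of Top2a and 30 before that of Prc1, and 98 before that of Mki67 at its nearest. In Kif11 and Prc1 the CCAAT began 45 and 62 bases before the start, upstream of the hexamer. Prc1 has another RefSeq window (chr7:80294201-80294500) with a start upstream of the printed one. The printed window was the one with both motifs whole before its start, so the Prc1 distances hold for that start alone. RefSeq and GENCODE starts coincide for Top2a and differ for the other 4, and the GENCODE genes of Cdk1 and Prc1 begin inside the printed stretch.

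Mki67 and Top2a, which are widely used to mark dividing cells, both rose. Mki67 (chromosome 7, 135689784 to 135716361) encodes the protein Ki-67, which coats mitotic chromosomes, and stood at 533, 482, 1483, 952 and 1648 normalised counts in TAZ-CCl4 replicates 1 to 5, against 60.3, 36.2 and 28.7 in control replicates 1 to 3. The lowest TAZ-CCl4 library was far above the highest control. Its log2 fold change was 4.47 ± 0.43 (SE; limma, adjusted p = 1.15e-05). Top2a (chromosome 11, 98992943 to 99024189), the topoisomerase that untangles sister chromatids, stood at 321, 236, 832, 612 and 798 in the TAZ-CCl4 libraries, against 61.95, 27.8 and 38.2 in the controls, with a log2 fold change of 3.59 ± 0.44 (adjusted p = 5.58e-05). In both genes replicates 3, 4 and 5 of the TAZ-CCl4 group were above replicates 1 and 2.

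All 5 regulators of mitotic entry rose, with a median log2 fold change of 4.21, the highest of the roles with more than 2 members. Foxm1 (chromosome 6, 128362967 to 128376146), the transcription factor that activates mitotic genes, stood at 198, 129, 433, 311 and 301 normalised counts in TAZ-CCl4 replicates 1 to 5, against 5.22, 10.5 and 7.902 in control replicates 1 to 3. Its log2 fold change of 4.88 ± 0.39 was the largest of the 42 (limma, adjusted p = 3.68e-06), and in contrast to most members control replicate 1 was the lowest control. The catalytic partner of the mitotic cyclins, Cdk1 (chromosome 10, 69335146 to 69352938), stood at 310.1, 185, 842, 596 and 746 in the TAZ-CCl4 libraries, against 42.5, 15.6 and 20.9 in the controls (log2 fold change 4.21 ± 0.50). Ccna2, the cyclin of the replication phase and early mitosis, stood at 212, 143, 476, 352 and 659.8 in the TAZ-CCl4 libraries, against 34.8, 14.6 and 11.2 in the controls (log2 fold change 4.08 ± 0.51). The cyclins that complete the switch into mitosis differed in their spread. Ccnb1 (chromosome 13, 100778650 to 100786570) stood at 135, 141, 248, 123 and 351 in the TAZ-CCl4 libraries, against 83.3, 9.82 and 3.38 in the controls. Control replicate 1 was far above the other two and not far under the lowest TAZ-CCl4 library, and the log2 fold change was 3.53 ± 0.79 with it and 4.74 without it. Ccnb2 averaged 296 ± 134 normalised counts in TAZ-CCl4 and 15.5 ± 14.4 in control libraries (SD, n = 5 and 3; log2 fold change 4.38 ± 0.54).

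The mitotic kinases and their relatives rose in all 5 cases. Plk1 (chromosome 7, 122159439 to 122169873), which drives centrosome maturation and mitotic entry, stood at 88.6, 124, 300.5, 188 and 302 in the TAZ-CCl4 libraries, against 19.5, 5.52 and 5.64 in the controls (log2 fold change 4.23 ± 0.51). Aurka (chromosome 2, 172356190 to 172370535), the kinase of the spindle poles, stood at 80.6, 115, 247, 137 and 259 in the TAZ-CCl4 libraries, against 28, 15.5 and 7.12 in the controls (log2 fold change 3.28 ± 0.48). In neither gene did the groups overlap. Melk, a kinase of dividing and progenitor cells, had the lowest controls of the list, with 31.9, 45.3, 67.7, 61.9 and 136 in the TAZ-CCl4 libraries, against 5.002, 1.07 and 1.06 in the controls, and a log2 fold change of 4.39 ± 0.54. Nek2, which splits the centrosome pair, had higher controls and the smallest change of the kinases, with 98.5, 169, 295, 199 and 407 in the TAZ-CCl4 libraries, against 38.1, 70.4 and 31.9 in the controls and a log2 fold change of 2.22 ± 0.43. Pbk, a kinase active in mitosis, averaged 121 ± 71.3 normalised counts in TAZ-CCl4 and 6.42 ± 2.87 in control libraries (SD; log2 fold change 3.83 ± 0.58). Limma gave these 5 genes adjusted p-values of 5.36e-05 to 0.00127.

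The chromosomal passenger complex corrects faulty attachments and later marks the division plane, and its 4 genes rose by log2 fold changes of 2.63 to 3.53. Its kinase gene Aurkb (chromosome 11, 69045647 to 69051664) stood at 76.7, 48.3, 202, 158 and 182 in the TAZ-CCl4 libraries, against 21.6, 4.93 and 22.5 in the controls (log2 fold change 3.01 ± 0.58). Birc5 (chromosome 11, 117849251 to 117855743), which encodes survivin and anchors the complex at the centromere, stood at 184, 341, 581, 453 and 708 in the TAZ-CCl4 libraries, against 60.2, 25.4 and 26.9 in the controls (log2 fold change 3.53 ± 0.43). Cdca8, the borealin subunit, had 52.8, 92.6, 210.4, 133 and 239.8 in the TAZ-CCl4 libraries, against 28.01, 13.4 and 20.1 in the controls (log2 fold change 2.63 ± 0.48). Every TAZ-CCl4 library was above every control in each of these genes. Incenp, the scaffold, averaged 321 ± 139 normalised counts in TAZ-CCl4 and 33.2 ± 2.35 in control libraries (SD), with the tightest controls of the complex, and a log2 fold change of 3.11 ± 0.36. Limma gave the 4 genes adjusted p-values of 3.77e-05 to 0.00123.

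The spindle checkpoint, which delays anaphase while kinetochores are unattached, had 4 of 4 genes higher. Bub1, a kinase at the kinetochore, stood at 67.96, 41.2, 182, 72.7 and 183 in the TAZ-CCl4 libraries, against 10.8, 1.88 and 3.13 in the controls (log2 fold change 4.17 ± 0.60). Bub1b (chromosome 2, 118598211 to 118641591), which encodes BubR1 of the inhibitory complex, stood at 132, 138, 291, 162 and 329 in the TAZ-CCl4 libraries, against 35.9, 18.3 and 3.37 in the controls (log2 fold change 3.75 ± 0.61). The controls of Bub1b were far from each other, with replicate 3 lowest. Mad2l1 (chromosome 6, 66535390 to 66547220), which binds and blocks Cdc20, differed from these in its controls, which were high and close together, with 224, 201, 512, 480.5 and 539 in the TAZ-CCl4 libraries, against 74.3, 67.2 and 75.1 in the controls. Its log2 fold change of 2.30 ± 0.35 was the smallest of the checkpoint. Ttk, the kinase that starts checkpoint signalling, averaged 102 ± 56.7 normalised counts in TAZ-CCl4 and 10.3 ± 2.43 in control libraries (SD; log2 fold change 3.02 ± 0.45).

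At the centromere and kinetochore all 6 genes rose, but 3 of the 4 members with overlapping groups belong here. Cenpa (chromosome 5, 30666777 to 30674830), the histone H3 variant that marks centromeres, had the highest control values of the list, with 93.1, 169, 419.7, 358 and 403 normalised counts in TAZ-CCl4 replicates 1 to 5, against 122, 120.0 and 94.6 in control replicates 1 to 3. TAZ-CCl4 replicate 1 was below every control, replicate 2 was above them, and replicates 3, 4 and 5 were far above. The log2 fold change of 1.15 ± 0.46 was the smallest of the 42, passed narrowly (limma, adjusted p = 0.0492), and failed under 12 of 18 alternatives, with adjusted p-values of 0.05005 to 0.241. Nuf2 (chromosome 1, 169497934 to 169531464), a subunit of the NDC80 complex that grips microtubules, stood at 48.5, 67.1, 189.8, 143 and 193 in the TAZ-CCl4 libraries, against 58.3, 1.25 and 1.91 in the controls. Its overlap rests on control replicate 1, and its log2 fold change was 3.95 ± 0.97 with that library and 5.46 without it. Ndc80 (chromosome 17, 71496100 to 71526857), the partner of Nuf2 in that complex, stood at 37.1, 20.7, 139, 90.8 and 118 in the TAZ-CCl4 libraries, against 18.9, 3.62 and 3.598 in the controls (log2 fold change 3.14 ± 0.71). Cenpe, a kinesin that carries chromosomes to the middle of the spindle, averaged 142 ± 106 normalised counts in TAZ-CCl4 and 18.7 ± 20.8 in control libraries (SD), its lowest TAZ-CCl4 library being just under control replicate 1. Its log2 fold change was 3.24 ± 0.88, and 4.18 without control replicate 1. The call was lost with the replicate block (limma, log2 fold change 2.77, adjusted p = 0.0795). Cenpf averaged 146 ± 63.7 in TAZ-CCl4 against 15.6 ± 13.5 in control libraries (SD; log2 fold change 3.62 ± 0.71). Spc25, a globular end of the NDC80 complex, averaged 246 ± 94.5 in TAZ-CCl4 against 47.6 ± 12.7 in control libraries (SD), with a log2 fold change of 2.30 ± 0.33 and the smallest spread on the log2 scale among the TAZ-CCl4 libraries of all members (SD 0.55).

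The 7 kinesin motors of the list all rose, over a range of log2 fold changes from 1.95 to 4.58. Kif4 (chromosome X, 100625737 to 100727214), a chromosome-bound kinesin that also acts on the central spindle, was the most changed, with 67.9, 39.3, 160.2, 113 and 202 in the TAZ-CCl4 libraries, against 3.77, 3.62 and 2.395 in the controls (log2 fold change 4.58 ± 0.51). Kif11 (chromosome 19, 37376403 to 37421859), the motor that pushes the spindle poles apart, stood at 152, 109.7, 335, 265 and 449.9 in the TAZ-CCl4 libraries, against 69.8, 21.7 and 22.8 in the controls (log2 fold change 2.79 ± 0.51). Kif20a (chromosome 18, 34624613 to 34633277), which moves the passenger complex to the midzone, stood at 217, 267, 697, 392 and 704 in the TAZ-CCl4 libraries, against 45.3, 27.7 and 14.4 in the controls (log2 fold change 3.90 ± 0.46). These 3 genes had no overlap between groups. Kif2c, a kinesin that takes microtubules apart at the centromere, did overlap, with 29.3, 66.8, 93.9, 64.6 and 139 in the TAZ-CCl4 libraries, against 32.1, 25.6 and 5.93 in the controls. Its log2 fold change of 1.95 ± 0.59 was the second smallest of the list (limma, adjusted p = 0.0147), and the call was lost without control replicate 3, with the replicate block and after quantile normalisation (adjusted p = 0.0692, 0.102 and 0.197). Kif23, a motor of the centralspindlin complex at the division plane, averaged 164 ± 125 normalised counts in TAZ-CCl4 and 15.3 ± 8.81 in control libraries (SD; log2 fold change 2.99 ± 0.73) and varied most among TAZ-CCl4 libraries, with an 11.7-fold gap between replicates 3 and 2. Kif15, which backs up Kif11, and Kif18b, which limits astral microtubules, averaged 78.4 ± 41.2 and 81.1 ± 43.8 in TAZ-CCl4 libraries, against 8.74 ± 3.82 and 3.63 ± 3.29 in controls (SD, n = 5 and 3). Their log2 fold changes were 2.91 ± 0.53 and 4.22 ± 0.55.

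Proteins that organise spindle microtubules rose to nearly the same extent, by log2 fold changes of 3.43 to 3.75. Tpx2, which brings Aurka to the spindle and starts new microtubules near chromosomes, stood at 127, 193, 395, 218 and 458 in the TAZ-CCl4 libraries, against 27.6, 11.8 and 16.9 in the controls (log2 fold change 3.75 ± 0.43). Prc1 (chromosome 7, 80294450 to 80316259), which bundles the midzone microtubules, stood at 134, 107, 353, 238 and 392 in the TAZ-CCl4 libraries, against 20.5, 40.96 and 8.05 in the controls (log2 fold change 3.43 ± 0.55). Control replicate 2 was the highest control for Prc1, unlike for most members. Nusap1 and Hmmr, both proteins of spindle microtubules, averaged 206 ± 134 and 230.4 ± 126 in TAZ-CCl4 libraries, against 19.9 ± 19.1 and 20.3 ± 14.96 in controls (SD, n = 5 and 3). Their log2 fold changes were 3.49 ± 0.66 and 3.54 ± 0.54, with no overlap between groups.

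The 3 genes of cytokinesis rose as well. Racgap1, the other subunit of centralspindlin, stood at 155, 189.6, 475, 347 and 613 in the TAZ-CCl4 libraries, against 24.3, 7.14 and 15.2 in the controls (log2 fold change 4.39 ± 0.50). Ect2, the exchange factor that switches on RhoA at the cell equator, stood at 172, 98.2, 324, 154 and 336 in the TAZ-CCl4 libraries, against 48.03, 18.9 and 9.52 in the controls (log2 fold change 3.18 ± 0.53). Anln (chromosome 9, 22332012 to 22389188), the scaffold protein anillin of the contractile ring, stood at 165, 105, 285, 180.2 and 288 in the TAZ-CCl4 libraries, against 14.3, 27.04 and 5.58 in the controls (log2 fold change 3.76 ± 0.48). Groups were apart for all 3. Of the genes that feed the anaphase promoting complex, Cdc20 (chromosome 4, 118432901 to 118437352), its mitotic activator, stood at 148, 212, 581, 268 and 556 in the TAZ-CCl4 libraries, against 49.6, 3.28 and 14.6 in the controls (log2 fold change 4.36 ± 0.72, and 5.24 without control replicate 1). Ube2c (chromosome 2, 164769898 to 164778822), the ubiquitin-conjugating enzyme that starts its chains, stood at 155, 139, 399, 266 and 459 in the TAZ-CCl4 libraries, against 37.9, 10.9 and 12.04 in the controls (log2 fold change 3.81 ± 0.50). Limma gave these 5 genes adjusted p-values of 3.55e-05 to 0.000449.

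**Figure D2:**
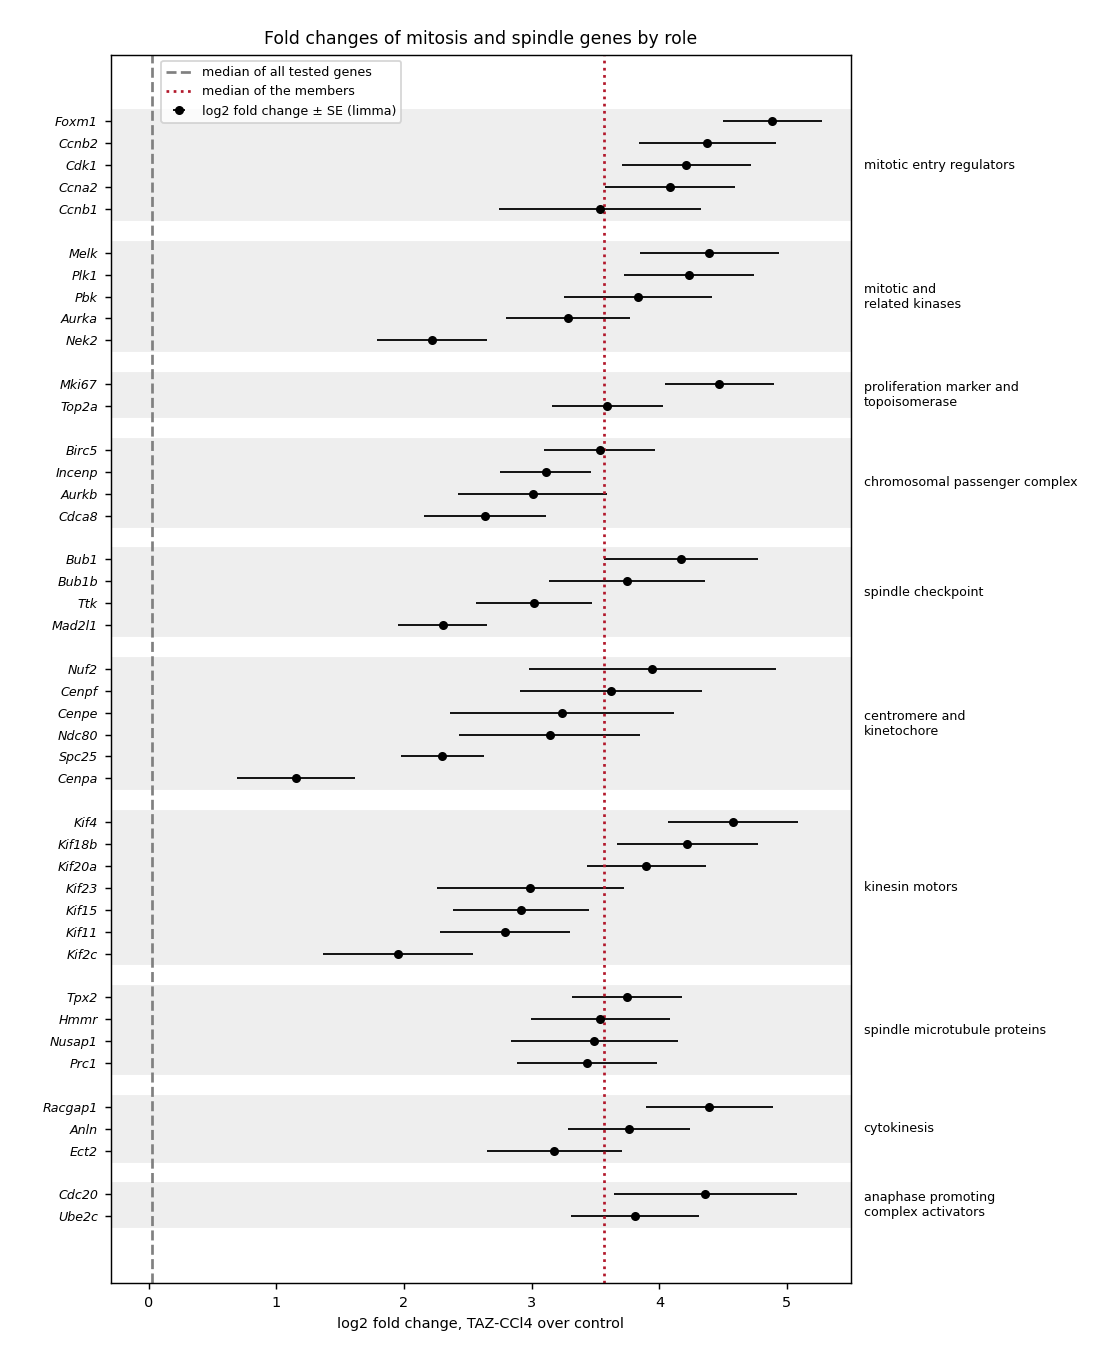
Points are log2 fold changes of TAZ-CCl4 over control libraries with their standard errors from limma, grouped by role and ordered by size within it. The dashed line is the median of all tested genes (0.03) and the dotted line the median of the members (3.57). All 42 points lie right of the dashed line, with Cenpa, at 1.15, nearest to it.

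Some members lie over exons of other genes, and counts of overlapping genes were not resolved here. Ccna2 shares exon sequence with Exosc9, Kif20a with Cdc23, Kif4 with Pdzd11, Cdc20 with Elovl1, Prc1 with Rccd1, Cdca8 with 9930104L06Rik, Ube2c with Tnnc2 and Nusap1 with Oip5, all on the opposite strand in GENCODE release M21. Foxm1 shares exon sequence with Tex52 and Gm44596 on its own strand. Among the other mitotic and kinesin genes named further on, exons are shared by Ska3 with Sap18, Ncapg with Lcorl, Haus8 with Myo9b, Klc3 with Ercc2, Pkmyt1 with Paqr4, Cdc25c with Gm3550, Anapc13 with Cep63, Anapc15 with Tomt, Rbbp4 with Sync, Rbl2 with Aktip and Ppp2r2d with Mapk1ip1 on the opposite strand and Cenpb with Spef1 on the same one. Whether the authors counted by strand was not stated in the labels.

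The TAZ-CCl4 libraries differed from each other in these genes, and they did so together. The mean log2 level of the 42 members was 6.73, 6.73, 8.21, 7.61 and 8.36 in TAZ-CCl4 replicates 1 to 5 and 4.86, 3.70 and 3.53 in control replicates 1 to 3. Ranked by this mean, replicate 5 was the highest, followed by 3 and 4, with 1 and 2 lowest and nearly level. The range within the TAZ-CCl4 group was 1.63 on the log2 scale, while the lowest TAZ-CCl4 library lay 1.87 above the highest control. Replicate 5 held the highest value for 31 members and replicate 3 for the other 11. The lowest value was in replicate 2 for 23 members, in replicate 1 for 18 and in replicate 4 for 1. The member-by-member order was close to that of the mean: for 35 of the 42, replicates 3 and 5 were above replicate 4 and replicates 1 and 2 below it. Of all tested genes 6.46% showed that order, and 17.6% had replicates 3 and 5 as the highest pair, as had 40 members. The order was read from the members themselves, so these counts are a description.

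Differences between libraries took up 84.0% of the within-group variance of the members' log2 levels in TAZ-CCl4 libraries and 43.7% in controls. The library means themselves had an SD of 0.78 on the log2 scale in TAZ-CCl4 and 0.72 in control libraries. Members rest on far fewer estimated reads in controls, so the 2 shares are not a like comparison. The share over all tested genes was not computed. For a typical member, the highest TAZ-CCl4 library was 3.86 times the lowest, with a range of 2.499 times for Bub1b to 11.7 times for Kif23. Each role followed the same order at the top, with replicate 5 above 3 and 3 above 4. Mean log2 levels of the mitotic entry regulators were 7.55, 7.31, 8.81, 8.21 and 8.88 in TAZ-CCl4 replicates 1 to 5, against 4.94, 3.64 and 3.23 in control replicates 1 to 3. Those of the kinesin motors were 6.15, 5.91, 7.66, 7.09 and 7.85 in TAZ-CCl4 replicates 1 to 5, against 4.35, 3.35 and 3.10 in control replicates 1 to 3. Those of the spindle microtubule proteins were 6.85, 7.04, 8.41, 7.58 and 8.69 in TAZ-CCl4 replicates 1 to 5, against 4.97, 4.27 and 3.24 in control replicates 1 to 3. Replicates 1 and 2 changed places between roles, with replicate 1 higher for entry regulators and motors and replicate 2 higher for spindle microtubule proteins. Among controls, replicate 1 was the highest for all 10 roles, and control replicate 2 was the lowest for the proliferation marker and topoisomerase, the chromosomal passenger complex, the centromere and kinetochore genes and the activators of the anaphase promoting complex.

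**Figure D3:**
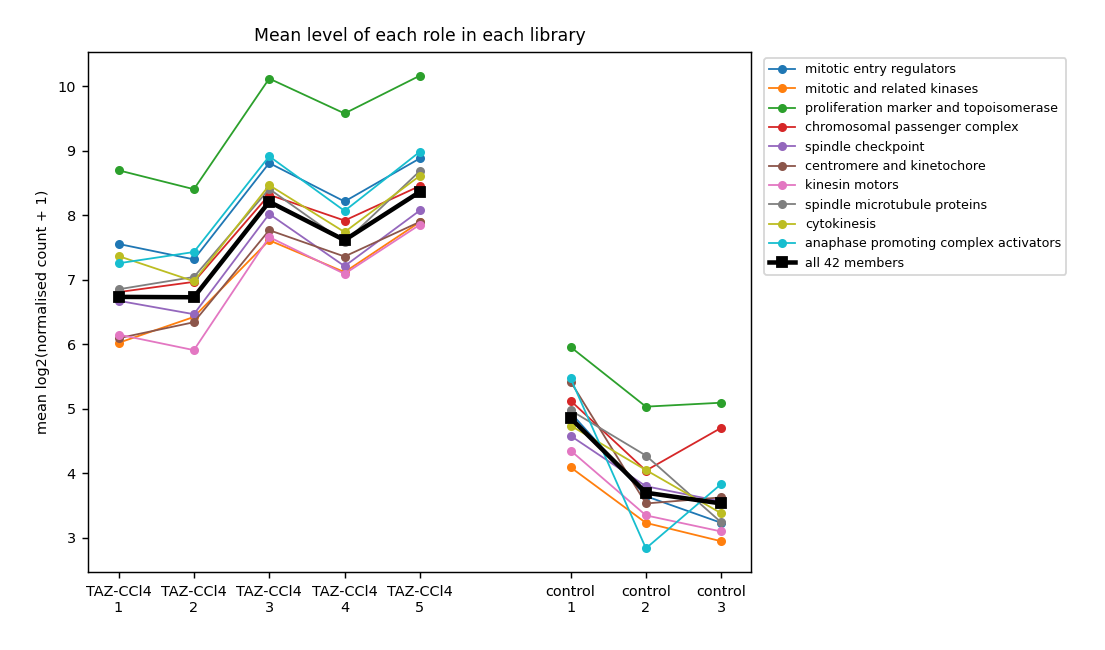
Mean log2(normalised count + 1) of the genes of each role is plotted for every library, TAZ-CCl4 replicates 1 to 5 at the left and control replicates 1 to 3 at the right, with the mean of all 42 members in black. Lines join the values of a role within a group and carry no order of time. The black squares stand at 6.73 to 8.36 in TAZ-CCl4 and at 3.53 to 4.86 in control libraries.

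**Figure D4:**
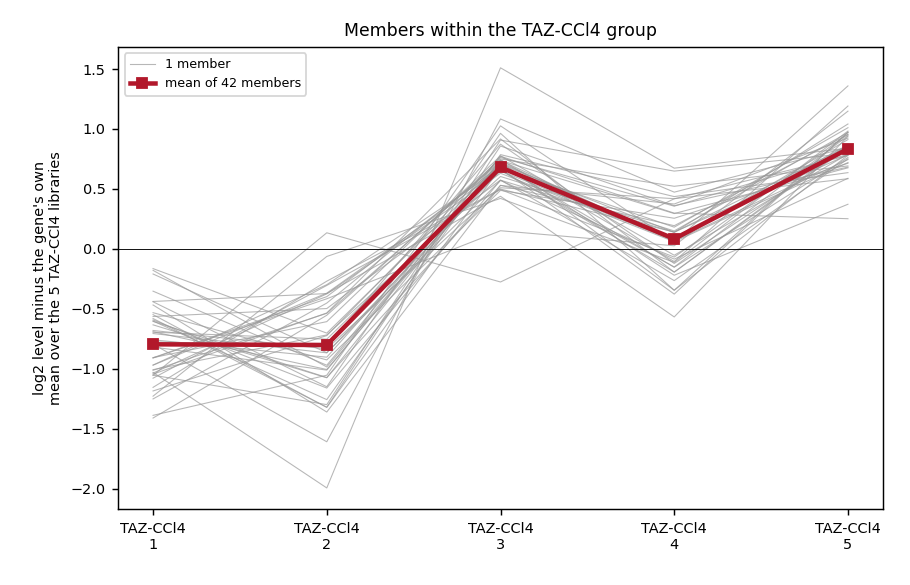
Each grey line is a member's log2 level in the 5 TAZ-CCl4 libraries minus its own mean over them, and the red line is the mean of the 42. The red squares lie near -0.80 in replicates 1 and 2, at 0.68 in replicate 3, at 0.08 in replicate 4 and at 0.83 in replicate 5, and most grey lines keep that shape.

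Markers of other cell types and of fetal liver and tumour hepatocytes also varied among these libraries, and their part in the ranking was not tested. Beside the marker counts below, 32.4% of all tested genes were called higher and 29.8% lower. Summed normalised counts of 4 fetal liver and tumour markers were 58863, 121923, 35851, 125698 and 17587 in TAZ-CCl4 replicates 1 to 5 and 86.7, 78.9 and 43.8 in control replicates 1 to 3, all 3 that were tested being called higher and Dlk1 not tested. Igf2, a fetal growth factor, made up 79.2% of the sum over the TAZ-CCl4 libraries and stood at 39055, 114439, 14045, 112853 and 4695 in replicates 1 to 5, lowest in 5 and 3. The other markers did not share that order. Gpc3, a cell surface proteoglycan, stood at 4292, 2295, 8368, 4249 and 7572, highest in replicates 3 and 5, and Afp, the fetal serum protein, at 15514, 5188, 13429, 8584 and 5319, highest in replicates 1 and 3. Summed counts of 9 stellate cell and fibroblast markers were 8360.3, 8845, 13159, 10937 and 15773 in TAZ-CCl4 replicates 1 to 5 and 2291, 3766 and 3865 in control replicates 1 to 3, with 5 called higher and 0 lower. Col3a1, a fibrillar collagen, made up 41.9% of that sum, and without it the sums were 5659, 5952, 6525, 6995 and 8043 in TAZ-CCl4 replicates 1 to 5. Replicate 5 held the highest value for 5 of the 9 markers and replicate 3 for 2, while Dcn was highest in replicate 2 and Lrat in replicate 1. Those of 9 macrophage and Kupffer cell markers were 14570.2, 7542, 16916, 10059 and 15189.7 in TAZ-CCl4 replicates 1 to 5 and 2400.3, 3412 and 1935 in control replicates 1 to 3, with 5 called higher and 0 lower. Of 9 T and NK cell markers, 4 of 8 tested were called higher, and the sums were 182, 168, 402, 389.9 and 254 in TAZ-CCl4 replicates 1 to 5 and 108, 129 and 93.2 in control replicates 1 to 3. Of 6 B and plasma cell markers 2 were called higher, with sums of 252, 437, 474, 1241 and 619 in TAZ-CCl4 replicates 1 to 5 and 88.4, 174 and 181 in control replicates 1 to 3. Among these called lymphoid markers, Cd3e, Trac, Cd8a, Nkg7 and Mzb1 had control means under 10. They passed the filter only through the TAZ-CCl4 libraries. Replicate 3 held the highest value for 7 of the 9 macrophage markers and replicate 4 for 6 of the 9 T and NK cell markers. Jchain made up 84.6% of the B and plasma cell sum, and without it the sums were 46.6, 75.2, 89.3, 134 and 122 in TAZ-CCl4 replicates 1 to 5.

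All 7 cholangiocyte markers were called higher. Their sums were 55489, 34922, 41714, 121877 and 53102 in TAZ-CCl4 replicates 1 to 5 and 2299 to 2900.2 in control libraries. Spp1 made up 91.4% of the sum in TAZ-CCl4 libraries. Of 7 neutrophil markers 3 were tested and called higher, and 3 of the 7 were at 0 in every control. The neutrophil sums were 333, 245, 156, 444 and 177 in TAZ-CCl4 replicates 1 to 5, lowest in 3 and 5, and 20.6 to 38.1 in control libraries. The called neutrophil markers S100a8 and Retnlg and the cholangiocyte marker Cftr had control means under 10. They passed the filter only through the TAZ-CCl4 libraries. Of 7 endothelial markers 2 were called higher and 2 lower, and at equal totals 5 were higher and 0 lower. The endothelial sums were 2437, 1862, 2719, 1740.1 and 2562 in TAZ-CCl4 replicates 1 to 5 and 1482 to 2762 in control libraries. The 6 tested of 7 erythroid markers were called lower, 1 of them at equal totals. The erythroid sums were 3656, 3181, 1276, 2841 and 826 in TAZ-CCl4 replicates 1 to 5, lowest in 5 and 3, and 9294 to 10187 in control libraries. Sums of the 8 hepatocyte markers were 780465, 865261, 1110798, 764295 and 1013977 in TAZ-CCl4 replicates 1 to 5, highest in 3 and 5. Alb made up 68.1% of that sum, and without it the sums were 216903, 394152, 325197, 210988 and 300488, highest in replicate 2. Estimated depth in M reads was 14.1, 13.1, 14.4, 33.8 and 12.4 in TAZ-CCl4 replicates 1 to 5 and 18.6, 24.9 and 24.9 in control replicates 1 to 3. TAZ-CCl4 replicates 5 and 2, at the ends of the ranking, had the lowest and second lowest depth of their group. Control replicate 1, the highest control for the members, had the lowest depth of the controls. The part of depth in the ranking was not tested.

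Of the other genes of mitosis, 154 were tested in 8 lists, drawn up by function with earlier results of these data known. Of these, 79 were called higher, 16 lower and 59 neither, against 32.4% higher and 29.8% lower over all tested genes. Some of those called higher had control means under 10 and passed the filter only through the TAZ-CCl4 libraries. Among the genes named below these were Ckap2l, Depdc1a, Ska3, Oip5, Ncapg, Cdca5 and Cdc25c. At equal totals 149 of the 154 were higher and 0 lower, where 10808 of all 14171 tested genes were higher and 903 lower. The directions of small changes given here therefore hold for the deposited scaling. Among 6 further mitotic kinesins the median log2 fold change was 2.52, 5 rose and Kif24 did not pass. Kifc1, a motor that focuses spindle poles, rose by 3.74 ± 0.41 on the log2 scale and Kif20b by 3.30 ± 0.49. Of 21 other genes of cytokinesis and the spindle, 18 rose, Chmp2a fell (-0.82, and 0.43 at equal totals), and Rhoa and Rock1 did not pass. Ckap2l, a spindle protein, stood at 96, 157, 335, 147 and 337 in the TAZ-CCl4 libraries, against 13.2, 2.41 and 5.99 in the controls (log2 fold change 4.78 ± 0.53), and Depdc1a rose by 4.29 ± 0.69. Of 37 other genes of the kinetochore, centromere and checkpoint, 22 rose, 3 fell and 12 did not pass (36 higher and 0 lower at equal totals), the median log2 fold change being 1.38. Ska3, of the complex that keeps kinetochores on growing and shrinking microtubules, stood at 26.01, 26.1, 52.8, 48.9 and 80.98 in the TAZ-CCl4 libraries, against 0, 1.05 and 2.03 in the controls (log2 fold change 4.58 ± 0.54), and Oip5, which helps load Cenpa at centromeres, rose by 4.21 ± 0.62. Zw10, Cenpb and Hjurp had log2 fold changes of -0.45, -0.44 and -0.52, against 0.80, 0.81 and 0.73 at equal totals.

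Genes of condensin, cohesin and the separase pathway, and switches of mitotic entry and exit, went both ways at the deposited scaling. Of 19 genes of condensin, cohesin and the separase pathway, 10 rose, 4 fell and 5 did not pass (17 higher and 0 lower at equal totals). Ncapg, of condensin, stood at 50.5, 71.01, 125, 149.6 and 187 in the TAZ-CCl4 libraries, against 17.5, 3.08 and 0 in the controls (log2 fold change 4.64 ± 0.81), and Cdca5, which protects cohesion, rose by 4.02 ± 0.77. Pttg1, which encodes securin, the inhibitor of separase, went the other way, with 158, 289, 373, 277 and 262 in the TAZ-CCl4 libraries, against 849, 707 and 771 in the controls. Its groups did not overlap, and the log2 fold change was -1.56 ± 0.24 (limma, adjusted p = 0.000252) and -0.31 at equal totals. The log2 fold changes of Ncapd3, Wapl and Pds5a were -0.97, -0.34 and -0.47, against 0.27, 0.91 and 0.78 at equal totals. Of 20 switches of mitotic entry and exit, 10 rose, 3 fell and 7 did not pass (19 higher and 0 lower at equal totals). Cdc25c, a phosphatase that activates Cdk1, rose by 3.91 ± 0.47 and Pkmyt1, a kinase that restrains it, by 3.50 ± 0.31. Ccnf, an F-box protein gene of the late cycle, stood at 119.6, 248, 258, 261 and 246 in the TAZ-CCl4 libraries, against 555, 497 and 477 in the controls, and its log2 fold change was -1.22 ± 0.25, against 0.03 at equal totals. Those of Arpp19 and Ppp2r2d were -0.58 and -0.63, against 0.67 and 0.61 at equal totals.

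Of 17 core subunits and partners of the anaphase promoting complex, 5 rose, 2 fell and 10 did not pass at the deposited scaling, around a median log2 fold change of 0.11, and 16 were called higher and 0 lower at equal totals. Beside these counts and those below, 32.4% of all tested genes were higher and 29.8% lower at the deposited scaling. At equal totals 10808 of the 14171 were higher. Fbxo5, its interphase inhibitor, rose by 1.09 ± 0.38, while Anapc13 and Anapc15 had log2 fold changes of -1.48 and -0.64, against -0.23 and 0.61 at equal totals. Of the 12 DREAM and MuvB genes, 2 rose, 2 fell and 8 did not pass at the deposited scaling, and all 12 were called higher at equal totals. The 2 that rose were Mybl2, which encodes B-MYB, with 61.2, 68.2, 133, 70.8 and 149.6 in the TAZ-CCl4 libraries, against 40.6, 13.6 and 23.7 in the controls (log2 fold change 1.88 ± 0.42), and Rbl1, which encodes the pocket protein p107, with 147, 75.8, 172, 130.3 and 163 in the TAZ-CCl4 libraries, against 50.4, 23.6 and 43.6 in the controls (log2 fold change 1.80 ± 0.33). The 2 that fell were Rbbp4 and Rbl2, named after their values were seen, with log2 fold changes of -0.64 and -0.66, against 0.61 and 0.59 at equal totals. Of 22 centrosome and gamma-tubulin genes, 7 rose, 14 did not pass and Tubg1 fell (-0.85, and 0.40 at equal totals, where all 22 were called higher). Stil, needed for centriole duplication, rose by 2.91 ± 0.71 and Haus8, of the augmin complex, by 2.42 ± 0.25. A further list held 17 tested kinesins and light chains of cargo transport, outside mitosis, of which 5 rose, 4 fell and 8 did not pass (14 higher and 1 lower at equal totals), the median being 0.39 on the log2 scale. Klc3 and Kif3c rose by 4.22 ± 0.42 and 3.15 ± 0.27, and Kif5a fell, with 25.3, 51.3, 29.96, 29.2 and 13.5 in the TAZ-CCl4 libraries, against 182, 184 and 198 in the controls (log2 fold change -2.73 ± 0.37, and -1.50 at equal totals). Klc3, with a control mean of 5.64, passed the filter only through the TAZ-CCl4 libraries. Kif1b, Kif1c and Klc4 had log2 fold changes of -1.05, -0.44 and -0.80, against 0.20, 0.81 and 0.45 at equal totals.

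TTTGAA was found in 26 of the 69 promoter windows of the other mitotic and kinesin genes called higher (37.7%), in 7 of 23 windows of those called lower (30.4%) and in 15 of 68 windows of those that did not pass (22.1%). For the members it was 75.7%. Over all tested genes the share was 12.5% among those called higher, 13.3% among those called lower and 12.3% among the rest.

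**Figure D5:**
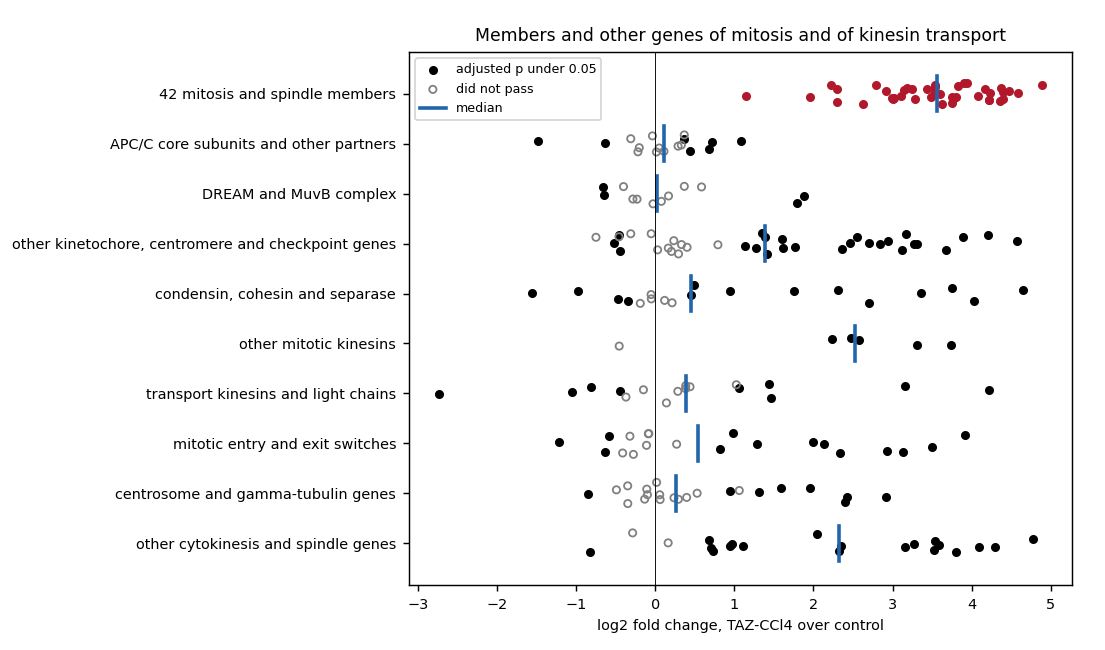
Each point is the log2 fold change of a gene, TAZ-CCl4 over control, for the 42 members (red) and 9 lists of other genes, filled where the adjusted p was under 0.05 and open where it was not. Blue bars are medians. The members lie between 1.15 and 4.88, and the lists of the anaphase promoting complex and of DREAM and MuvB have medians of 0.11 and 0.03.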

How the data were processed

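Poly-A RNA libraries of mouse liver were sequenced in pairs, per the labels' protocols, which name 2 RNA kits without saying which library used which. The deposited values are a signal, normalised counts for each gene in each library. The table deposited by the authors carries kallisto and DESeq2 in its name, and DESeq2 and the build mm10 are also given per the submitters' processing notes. The labels state no version, annotation or filter. The 42 members, the gene lists and the tests were chosen with earlier results of these data known. Values were transformed as log2(value + 1), genes whose mean over the 8 libraries reached 10 (14171 of 35204, with 12579 at 0 in all libraries) were kept, and 5 TAZ-CCl4 were compared with 3 control libraries in limma 3.58.1 under R 4.3.3, letting the prior variance follow the mean level. Benjamini-Hochberg adjustment ran over all tested genes, with a threshold of 0.05. The model held the group alone, since the project of the libraries is the same split. The script was tested on simulated data. Whether each library is its own mouse is not in the labels, and p-values then reflect only how these samples spread, a spread that may be technical.

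The value of 1 read was estimated as the most frequent value below 10 in a library (0.366 to 1.88). This is an estimate, and no count model was run. Values per library are given for 20 fixed members and for those with the largest and smallest change of each role, and the other members are given as means. From each list of other genes the 2 called genes with the largest change and a group mean of at least 20, and each called gene of the rarer direction, are named. Positions are from GENCODE release M21 (mm10), and promoter windows and gene starts from RefSeq. In 27 of the 37 windows the last 40 bases were found in a GENCODE transcript of the same gene. The alternatives were 2 other pseudocounts (0.5 and 5), 2 other filters, 4 other scalings, no variance trend, a replicate block and leaving out each library.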

Additional observations from a re-analysis of the deposited data

Results flagged for a closer look

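Among the 5 TAZ-CCl4 libraries, a value was singled out when its gap to the nearest other library exceeded 0.71 of the range of the group, which chance does for about 1 in 20 groups. Of 91 groups of values examined 4 met this, and none of the 42 members did. Wwtr1 stood at 9021 in replicate 1, against 4339 to 5299 in the other 4. Replicates 1 and 2 were the lowest for the mitotic genes, and replicate 2 had the lowest Wwtr1 of the group (4339). A relation between Wwtr1 and the mitotic genes among these libraries was not tested. Ccnf stood at 119.6 in replicate 1, against 246 to 261 in the others, and Klc4 at 1305 in replicate 2, against 713 to 881. Summed cholangiocyte markers were 121877 in replicate 4, against 34922 to 55489 in the others. Spp1 made up 91.4% of that sum over the TAZ-CCl4 libraries, and the other 6 markers summed to 8155, 4433, 2934, 6776 and 4028 in TAZ-CCl4 replicates 1 to 5, with replicate 1 highest.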

How the results depend on the processing

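Of 748 fits of single members under 18 alternatives, 732 kept the call, 16 lost it and 0 reversed: Cenpa lost it in 12, Kif2c in 3 and Cenpe in 1 (replicate block, adjusted p = 0.0795). Between 39 and 42 members were called higher in the alternatives that tested all 42, and 0 lower in every one, with 40 to 42 when a library was left out. The median log2 fold change of the members was 2.80 after quantile normalisation, 4.76 at equal totals and 4.36 at equal totals of the genes other than Mup and mitochondrial ones (the reduced total), and 3.25 to 4.07 when a library was left out. Over all tested genes, the reduced total gave 8912 higher and 1512 lower, and equal totals gave 10808 and 903. The other mitotic and kinesin genes had 163 higher and 1 lower at equal totals, 143 and 3 with the reduced total, and 11 lower at equal upper quartiles. With a library left out they had 74 to 87 higher and 12 to 23 lower, the 12 being without control replicate 3. All tested genes had 4015 to 4586 higher and 3600.0 to 4269 lower with a library left out.

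Of 658 fits of the other named mitotic and kinesin genes called at the deposited scaling, 556 kept the call, 69 lost it and 33 turned in sign. Signs turned at equal totals for Anapc15 (0.61), Zw10 (0.80), Cenpb (0.81), Hjurp (0.73), Ncapd3 (0.27), Wapl (0.91), Pds5a (0.78), Kif1b (0.20), Kif1c (0.81), Klc4 (0.45), Arpp19 (0.67), Ppp2r2d (0.61), Ccnf (0.030), Tubg1 (0.40), Chmp2a (0.43), Rbbp4 (0.61) and Rbl2 (0.59). At the reduced total they turned for Anapc15 (0.19), Zw10 (0.38), Cenpb (0.39), Hjurp (0.31), Wapl (0.49), Pds5a (0.36), Kif1c (0.39), Klc4 (0.027), Arpp19 (0.25), Ppp2r2d (0.20), Rbbp4 (0.19), Rbl2 (0.17) and Chmp2a (0.00745), and after quantile normalisation for Cenpb (0.046), Hjurp (0.26) and Kif1c (0.35). The scalings to equal totals move the median of all genes by construction.

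The order of TAZ-CCl4 libraries had replicates 5, 3 and 4 on top under all 16 alternatives for it, and replicates 1 and 2 changed places in 6. These alternatives were the 2 other pseudocounts, the 4 other scalings and leaving out each role in turn. Every role by itself had replicates 5, 3 and 4 on top in that order, so leaving out a role could not change it. Replicate numbers did not pair the libraries: deviations of same-numbered libraries correlated at -0.07, -0.06 and -0.09, and no library correlated best with its own number. With the numbers as a replicate block, 39 members were called higher, with a median of 3.30, and 3801 of all tested genes were higher and 3479 lower. Control values of the members rest on few estimated reads, which limits the precision of their folds.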
